A study of Homo sapiens with 12 samples.

Results

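The 6 libraries described here are the vehicle controls of a study of human endometrium: 3 of HEC-1A cells and 3 of T-HESC cells, out of 12 libraries in all. They were chosen by their labels, which give the cell line and 32 h of culture with DMSO, the solvent of the compound AG-205. The other 6 libraries are of the same lines given AG-205 at 15 µM for the same time, a compound sold as a ligand of PGRMC1, a protein proposed to bind progesterone. The study concluded that PGRMC1 was not required for the effects of AG-205 that it followed. HEC-1A is an epithelial-like line from an endometrial adenocarcinoma, and T-HESC is a fibroblast-like endometrial stromal line immortalised with telomerase. Both lines were grown in the same serum-containing medium without added progesterone, and the 3 libraries of a line came from separate cultures. Each line stands for 1 source of cells, so origin, malignant state and immortalisation cannot be told apart between them, and the p-values describe the spread between cultures of 1 line. The comparison asks how the epithelial and the stromal line differed over all genes with DMSO and without AG-205.

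The endometrium pairs an epithelium, whose cells are sealed to each other by tight junctions, adherens junctions and desmosomes on a basement membrane, with a stroma of fibroblasts that lie apart in a collagen-rich matrix. Epithelial identity is held by factors such as GRHL2, OVOL2 and the ESRP splicing proteins, and mesenchymal identity by ZEB, SNAI and TWIST factors, some of which bind E-boxes and repress junction genes. In the cycling uterus progesterone acts largely through its receptor in the stroma, which answers with decidualization and with paracrine signals to the epithelium.

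RNA levels are given in counts scaled to a common library size (CPM), adjusted by the trimmed mean of M values (TMM), in the order of replicates 1, 2 and 3. Library totals were 9762159 to 10974428 counts for HEC-1A and 11440359 to 15178276 for T-HESC. A group with at most 3 counts in each of its libraries is called at the floor, and a fold against it is given as a lower bound. The line difference is a log2 fold change, T-HESC minus HEC-1A, with its SE, tested with edgeR's quasi-likelihood test and Benjamini-Hochberg adjustment over 14789 genes. A gene is called higher in a line at an adjusted p under 0.05 and more than a 2-fold difference. T-HESC replicate 3 stood apart from the other cultures of its line: on the second principal component (2.12% of the variance) it lay at -47.0, against 25.9 and 20.6 for replicates 1 and 2. Its level of NQO1, an oxidative stress enzyme, was 837 CPM against 238 and 236 in its sister cultures, and that of the chemokine CXCL8 was 5.78 CPM against 471 and 636. The biological coefficient of variation was 20.6% over the T-HESC libraries and 5.55% over the HEC-1A libraries. Named genes whose call changed without T-HESC replicate 3 are given with the value without it. Exons of some named genes share more than 20% of their length with another gene, so their reads may have been divided or lost. They include CD68, CDH13, F11R, FOXO1, FTH1, HAND2, HOXA4, HOXA6, HOXA7, HOXA11, HOXD11, ICAM1, IL11RA, ITGA4, ITGB3, LYZ, MCM2, NID2, PAX8, PLAU, RARA and VIM.

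The lines differed over much of the transcriptome. Of 14789 genes tested, 3296 (22.3%) were called higher in T-HESC and 3297 (22.3%) higher in HEC-1A. Without a scaling factor for library composition these counts were 2666 and 4383, so that T-HESC held 37.8% of the calls in place of 50%. The equal split thus rests on the scaling, which also set the median log2 difference of all genes at -0.0151 in place of -0.365. Without T-HESC replicate 3 the counts were 3632 and 3603. The median absolute log2 difference was 0.859. On the first principal component, with 96.4% of the variance, the lines lay at opposite ends, and libraries of the lines did not overlap for 11344 genes (76.7%). A switch between detection and the floor was common: 814 of the genes called higher in T-HESC (24.7%) were at the floor in HEC-1A, and 860 of those called higher in HEC-1A (26.1%) were at the floor in T-HESC. Among the 13115 genes above the floor in both lines, 2482 (18.9%) were higher in T-HESC and 2437 (18.6%) in HEC-1A. More than 16-fold differences were called for 1328 genes towards T-HESC and 1111 towards HEC-1A. Of those called, 2944 and 2517 respectively were protein-coding.

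**Figure D1:**
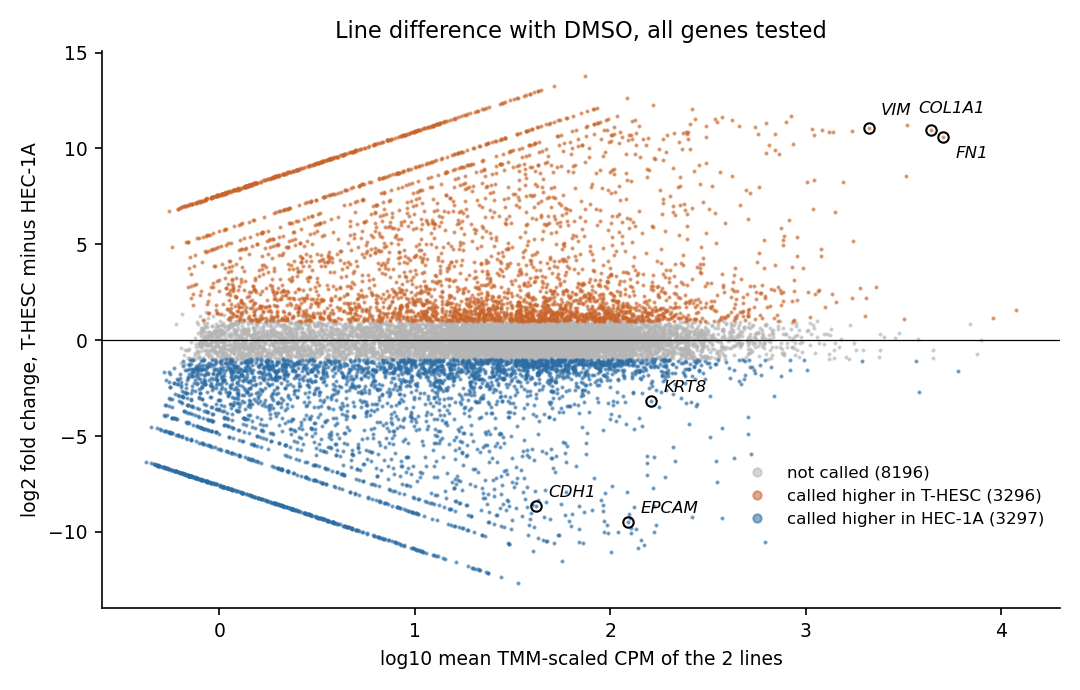
Line difference of every gene tested: the x axis is the log10 mean CPM of the lines, the y axis the log2 fold change (T-HESC minus HEC-1A), and each point is 1 gene coloured by its call. Both directions hold about the same number of calls (3296 and 3297), the 6 marker genes circled lie far from 0 on their own side, and the straight bands at the edges are genes with 0 or few counts in 1 line.

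The labels of both lines fitted their markers. EPCAM, an epithelial adhesion molecule (ENSG00000119888, chr2:47345158-47387601 in GRCh38), measured 257, 233 and 246 CPM in HEC-1A and 0.302, 0.495 and 0.199 CPM in T-HESC. All HEC-1A libraries lay above all T-HESC libraries, with a log2 difference of -9.46 ± 0.19 (adjusted p = 4.18e-09). E-cadherin, CDH1 (ENSG00000039068, chr16:68737292-68835537), measured 76.5, 88.6 and 83.2 CPM in HEC-1A and 0.151, 0.248 and 0.199 CPM in T-HESC. T-HESC was at the floor for it, which put HEC-1A at least 321-fold higher. Keratin 8, KRT8 (ENSG00000170421, chr12:52897187-52949954), was lower but not lost in the stromal line, at 315, 270 and 288 CPM in HEC-1A and 41.4, 34.9 and 21.5 CPM in T-HESC (log2 difference -3.15 ± 0.22, adjusted p = 2.5e-06). In the other direction vimentin, VIM (ENSG00000026025, chr10:17228241-17237593), the intermediate filament of mesenchymal cells, measured 1.9, 2.66 and 1.18 CPM in HEC-1A and 4331, 5016 and 3194 CPM in T-HESC (log2 difference 11.07 ± 0.33). Opposite-strand genes cover 24.6% of its exon length. COL1A1 (ENSG00000108821, chr17:50184101-50201632), a chain of type I collagen, measured 6.03, 3.22 and 3.62 CPM in HEC-1A and 11420, 7341 and 7372 CPM in T-HESC (log2 difference 10.98 ± 0.35). Fibronectin, FN1 (ENSG00000115414, chr2:215360440-215436073), measured 8.42, 5.72 and 5.25 CPM in HEC-1A and 9537, 6690 and 13800 CPM in T-HESC (log2 difference 10.59 ± 0.39, adjusted p = 5.66e-08). For these 3 genes every T-HESC library stood far above every HEC-1A library.

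Other markers were graded. Of 7 epithelial markers tested 5 were higher in HEC-1A, and of 8 stromal markers 7 were higher in T-HESC. KRT7 fell on the epithelial side with 448, 400.3 and 414 CPM in HEC-1A and 6.11, 6.36 and 3.49 CPM in T-HESC. KRT18, the partner of keratin 8, was 331 to 389.8 CPM in HEC-1A and 111 to 188 CPM in T-HESC. Its log2 difference of -1.22 ± 0.18 dropped below the 2-fold limit without T-HESC replicate 3 (-0.99). KRT19 gave 104, 97.7 and 101 CPM in HEC-1A and 111, 105 and 103 CPM in T-HESC, and the libraries overlapped (adjusted p = 0.457), with a direction that turned under other scalings. The mucin MUC1, listed as epithelial, went the other way at a low level, with 0.165, 0.322 and 0.452 CPM in HEC-1A and 8.67, 4.62 and 3.39 CPM in T-HESC (log2 difference 4.14 ± 0.51, adjusted p = 9.92e-05). Among stromal markers the platelet-derived growth factor receptors PDGFRA and PDGFRB were at 199 to 301 and 316 to 482 CPM in T-HESC. PDGFRA was at the floor in HEC-1A, at least 1003-fold lower. The fibroblast surface protease FAP was at least 382-fold higher in T-HESC. S100A4, often used as a fibroblast marker, did not separate the lines, at 62.1, 54.6 and 58.5 CPM in HEC-1A and 62.1, 57.8 and 55.7 CPM in T-HESC (adjusted p = 0.976).

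**Figure D2:**
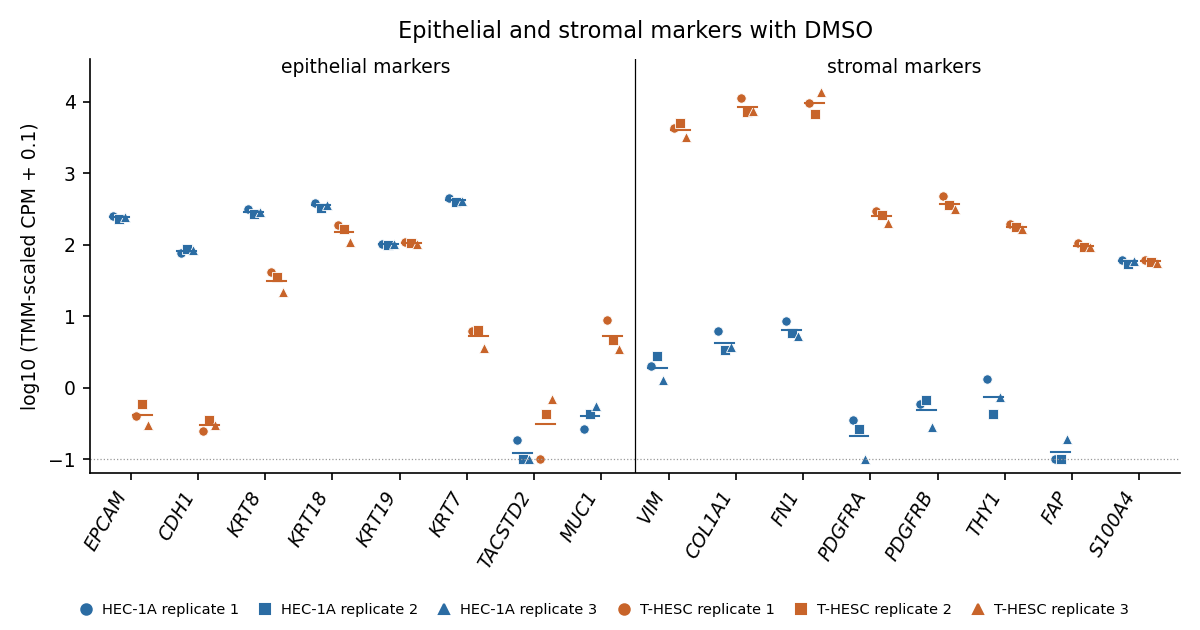
Levels of 8 epithelial and 8 stromal markers in the 6 libraries: the y axis is log10 (CPM + 0.1), blue points are HEC-1A and orange points T-HESC, symbol shapes are replicates, and bars are means on the log scale. EPCAM, CDH1 and KRT7 sit high only in the blue points and VIM, COL1A1 and FN1 only in the orange points, while KRT19 and S100A4 coincide.

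The cytoskeleton followed the same division. Of 12 contractile and caveolar genes 11 were higher in T-HESC and none in HEC-1A, with a median log2 difference of 5.64 against -0.0151 over all genes. MYL9, a regulatory light chain of myosin, measured 0.578, 0.403 and 0.452 CPM in HEC-1A and 1649, 1235 and 879.7 CPM in T-HESC. CAVIN1, a coat protein of caveolae, measured 1.49, 1.85 and 0.995 CPM in HEC-1A and 2682, 2633 and 2969 CPM in T-HESC, a log2 difference of 10.88 ± 0.21. The calponin CNN2 was not called, being under the 2-fold limit (adjusted p = 0.0282), with 338 to 355 CPM in HEC-1A and 379.5 to 459.9 CPM in T-HESC. Outside the classical simple keratins the lines split by member: KRT34, a hair-type keratin, was at 97.3 to 131 CPM in T-HESC and at the floor in HEC-1A, whereas KRT80 measured 193, 209 and 204 CPM in HEC-1A and 10.3, 9.74 and 12.2 CPM in T-HESC.

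Markers of other cells that endometrium can hold were silent only in part, and 8 of 24 had enough counts to be tested. Of 6 endothelial markers PECAM1, CDH5, KDR and CLDN5 were at the floor in both lines, and so were CD3E, CD68 and LYZ of the 7 leukocyte markers. PTPRC, the common leukocyte antigen CD45 and the only one of them tested, was called higher in T-HESC at a low level (1.36, 1.4 and 1.5 CPM against 0 counts, at least 5.6-fold, adjusted p = 0.000106), and CD14, not tested, was at 0.997 to 1.36 CPM in T-HESC and 0.241 to 0.362 CPM in HEC-1A. CD68 shares 81.6% of its exon length with another gene on its strand, and LYZ 34.7% on the opposite strand. Their reads may have been lost, so their floor values are uncertain. The summed leukocyte markers reached 0.413 to 0.644 CPM in HEC-1A and 2.49 to 2.87 CPM in T-HESC. The summed endothelial markers reached 0 to 0.413 and 57.7 to 83.8 CPM. The T-HESC endothelial sum was almost entirely TEK, the angiopoietin receptor, at 58, 57.4 and 83.6 CPM with HEC-1A at the floor (at least 262-fold). Of 4 smooth muscle genes tested 3 were higher in T-HESC. CNN1 (63.5 to 126 CPM in T-HESC, at least 377-fold higher) and SMTN (326 to 358 against 19.4 to 23 CPM) were 2 of them, and the actin ACTG2 was at 10.7, 9.41 and 1.59 CPM in T-HESC with HEC-1A at the floor (at least 28.6-fold). Desmin, DES, not tested, was at 0.399 to 0.578 CPM and the smooth muscle myosin MYH11, not called, at 0.826 to 1.28 CPM in T-HESC. FOXJ1, the master regulator of motile cilia, was at 37.6, 39 and 38.8 CPM in HEC-1A and at the floor in T-HESC (at least 149-fold). The cilium genes PIFO and DNAH9 were at the floor in both lines and RSPH1 reached no more than 0.966 CPM. Of the other listed markers of ciliated cells, TPPP3, not tested, reached no more than 1.13 CPM. CAPS, not called, was at 4.67 to 5.45 CPM in HEC-1A and 3.09 to 9.58 CPM in T-HESC.

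Cell-cell adhesion was divided by junction type. Of 14 tight junction genes tested 13 were higher in HEC-1A and none in T-HESC, a median log2 difference of -6.79 with floor genes at their bound. The apical polarity protein CRB3 measured 51.3, 46.5 and 44.5 CPM in HEC-1A and 0, 0.0826 and 0.0997 CPM in T-HESC, at least 184-fold higher in HEC-1A. The claudin CLDN3 measured 91.8, 86.2 and 78.4 CPM in HEC-1A and 0.453, 0.248 and 0 CPM in T-HESC (log2 difference -8.34 ± 0.32), and the adhesion molecule F11R was at least 202-fold higher in HEC-1A. The exception was the scaffold TJP1, also called ZO-1, at 165, 189 and 195 CPM in HEC-1A and 109.7, 96.1 and 188 CPM in T-HESC, where the libraries overlapped (adjusted p = 0.0865). Desmosome genes split: 5 of 7 tested were higher in HEC-1A and 2 in T-HESC. The desmosomal cadherin DSG2 measured 245, 284 and 279 CPM in HEC-1A and 0.302, 0.33 and 0.199 CPM in T-HESC (log2 difference -9.85 ± 0.17), and the desmocollin DSC2 and the plaque protein PKP2 had 0 counts in all T-HESC libraries, at least 82.5-fold and 75.9-fold lower. Desmoplakin, DSP, which ties desmosomes to keratin, ran the other way with 40.1, 49.3 and 49.6 CPM in HEC-1A and 706, 415 and 479 CPM in T-HESC (log2 difference 3.52 ± 0.21, adjusted p = 1.05e-06). PERP was also higher in T-HESC (90.3 to 112 against 44.2 to 48.7 CPM), though under the 2-fold limit without T-HESC replicate 2 (0.998), with upper-quartile scaling or without a scaling factor.

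The 250 bases before the start sites of 4 junction genes are printed to show how the E-box CACCTG, the motif bound by ZEB and SNAI factors, lies in genes that differed in opposite directions. Sequences are from RefSeq (GRCh38.p14), 5′ to 3′ on the strand of the gene, with CACCTG or its reverse complement CAGGTG in capitals. CRB3, OCLN and DSG2 were higher in HEC-1A, and DSP was higher in T-HESC.
CRB3, chr19:6464021-6464270, plus strand: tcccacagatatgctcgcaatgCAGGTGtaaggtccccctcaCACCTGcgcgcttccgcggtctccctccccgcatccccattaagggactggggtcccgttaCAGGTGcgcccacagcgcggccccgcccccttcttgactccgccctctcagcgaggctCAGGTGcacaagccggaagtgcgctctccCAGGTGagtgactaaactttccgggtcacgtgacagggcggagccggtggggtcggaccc
OCLN, chr5:69492297-69492546, plus strand: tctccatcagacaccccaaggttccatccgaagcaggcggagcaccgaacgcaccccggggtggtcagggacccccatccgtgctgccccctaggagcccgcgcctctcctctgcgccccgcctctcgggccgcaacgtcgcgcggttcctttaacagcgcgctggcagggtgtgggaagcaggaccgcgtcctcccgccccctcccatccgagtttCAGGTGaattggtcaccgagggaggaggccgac
DSG2, chr18:31497927-31498176, plus strand: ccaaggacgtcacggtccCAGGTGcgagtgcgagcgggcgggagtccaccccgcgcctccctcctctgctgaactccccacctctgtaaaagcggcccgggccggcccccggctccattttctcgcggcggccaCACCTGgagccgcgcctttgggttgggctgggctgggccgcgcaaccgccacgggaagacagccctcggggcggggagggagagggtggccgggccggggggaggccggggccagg
DSP, chr6:7541421-7541670, plus strand: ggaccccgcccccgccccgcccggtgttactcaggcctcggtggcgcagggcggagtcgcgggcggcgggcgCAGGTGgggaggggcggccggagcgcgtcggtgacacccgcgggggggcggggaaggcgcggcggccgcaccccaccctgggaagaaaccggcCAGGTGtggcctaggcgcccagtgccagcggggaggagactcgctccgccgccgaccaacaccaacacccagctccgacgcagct
The windows hold 5, 1, 2 and 2 matches respectively, so the gene with the opposite direction carried as many as DSG2. Over windows of 250 bases before to 50 after the start site, 5 of 13 junction, cadherin and marker genes higher in HEC-1A with a sequence in the table held the E-box (38.5%), as did 3 of 5 higher in T-HESC, against 7231 of 35116 promoters (20.6%). Of the 40 listed genes searched only 23 had an entry, and EPCAM and CDH1 were among those without one. Where a gene had several entries only the first was searched, which need not be its main start site. The windows of KRT8 and CDH4 lay well inside the gene. A match is a string of letters and no evidence of binding.

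Cadherins changed places between the lines. Beside CDH1, the kidney-type cadherin CDH16 was found only in HEC-1A libraries, at 45.1, 43.9 and 40.8 CPM with 0 counts in T-HESC (at least 168-fold). N-cadherin, CDH2, measured 2.81, 3.38 and 3.44 CPM in HEC-1A and 429.8, 411 and 404 CPM in T-HESC (log2 difference 7.01 ± 0.12). CDH11, the cadherin of mesenchymal cells, was at 113, 113 and 159.7 CPM in T-HESC and at the floor in HEC-1A. CDH4, CDH6 and CDH13 were also higher in T-HESC, so 5 of 7 cadherins tested went that way and 2 the other. Integrins divided by subunit. The matrix receptors ITGA4, ITGA1 and ITGA11 were higher in T-HESC by at least 525-fold, 739-fold and 94-fold, and 8 of 10 alpha subunits tested went that way. ITGA3, a laminin-binding subunit, was the 1 alpha subunit higher in HEC-1A (809.6 to 849.7 against 291 to 380 CPM), and ITGAV was not called (152 to 175 and 162 to 188 CPM, adjusted p = 0.556). Among beta subunits, ITGB4 of hemidesmosomes measured 143, 155 and 145 CPM in HEC-1A and 2.87, 1.9 and 2.29 CPM in T-HESC. ITGB8 (281 to 356 against 1.28 to 1.82 CPM), ITGB3 and ITGB6 followed it, while the common subunit ITGB1 measured 550.2, 595 and 589 CPM in HEC-1A and 1980, 2198 and 2684 CPM in T-HESC and ITGB5 was 516 to 763 against 112 to 117 CPM. The gap junction protein GJA1, connexin 43, was at 664, 606 and 265 CPM in T-HESC and at the floor in HEC-1A (at least 2019-fold), whereas GJB1 was higher in HEC-1A. The hyaluronan receptor CD44 measured 1.98, 1.29 and 0.995 CPM in HEC-1A and 1368, 1455 and 1326 CPM in T-HESC. ICAM1, a leukocyte-binding molecule, turned on 1 culture: it was 69.2, 71.6 and 64.1 CPM in HEC-1A and 178, 146 and 12.9 CPM in T-HESC, not called with all libraries (adjusted p = 0.363) and called higher in T-HESC without T-HESC replicate 3 (log2 difference 1.29).

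Matrix genes were mostly higher in T-HESC. Of 90 matrix genes tested 71 were higher in T-HESC, 13 higher in HEC-1A and 6 not called. In all, 6 of 8 fibrillar collagen genes were higher in T-HESC. COL3A1 measured 0.578, 0.403 and 0.814 CPM in HEC-1A and 2029, 1673 and 1039 CPM in T-HESC and COL1A2 3.14, 3.06 and 1.99 CPM in HEC-1A and 8138, 6646 and 4864 CPM in T-HESC, log2 differences of 11.36 ± 0.38 and 11.21 ± 0.31. COL5A1, the chain that starts type I fibrils, measured 0.33, 0.322 and 0 CPM in HEC-1A and 834, 585 and 638 CPM in T-HESC. COL11A2 alone was higher in HEC-1A (4.87 to 6.92 against 1.5 to 2.4 CPM), and COL27A1 overlapped. The summed fibrillar collagen RNA was 14600 to 23200 CPM in T-HESC and 37.8 to 43.6 CPM in HEC-1A. Collagen VI was likewise higher in T-HESC. COL6A1, COL6A2 and COL6A3 reached 996 to 1316, 1711 to 3380 and 1298 to 2187 CPM in T-HESC. None exceeded 4.71 CPM in HEC-1A. COL14A1 was not called with all libraries (3.24, 1.65 and 0.0997 CPM in T-HESC) and was called higher in T-HESC without T-HESC replicate 3 (log2 difference 1.84). All 12 collagen-modifying enzymes were higher in T-HESC, among them the cross-linking oxidases LOXL1 (346, 334 and 313 CPM, at least 1305-fold) and LOXL2 (1.73, 1.13 and 1.45 CPM in HEC-1A and 1420, 1249 and 1089 CPM in T-HESC) and the lysyl hydroxylase PLOD2 (134, 201 and 267 CPM, at least 793-fold).

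Basement membrane genes did not follow the stromal line as a group. Of 9 basement membrane and network collagens 5 were higher in T-HESC and 4 in HEC-1A. COL4A1 and COL4A2, the ubiquitous chains of type IV collagen, were higher in T-HESC (475 to 595 and 1534 to 2195 CPM against 33.1 to 36.1 and 127 to 136 CPM). The tissue-restricted chains COL4A3 and COL4A5 were at the floor in T-HESC and at 6.6 to 9.77 and 10.4 to 16.6 CPM in HEC-1A. COL18A1, the source of endostatin, measured 676, 684 and 701 CPM in HEC-1A and 9.8, 7.84 and 8.47 CPM in T-HESC (log2 difference -6.30 ± 0.12). Laminins split in the same manner. LAMA5, the main alpha chain of epithelial basement membranes, measured 777, 910.4 and 853 CPM in HEC-1A and 15.5, 11.7 and 8.97 CPM in T-HESC (log2 difference -6.12 ± 0.21), and LAMA3, a chain of laminin-332, was higher in HEC-1A with a log2 difference of -4.43. LAMA4 was at 206, 161 and 143 CPM in T-HESC and at the floor in HEC-1A. LAMA1 was 13, 17.1 and 14.3 CPM in HEC-1A and 64.5, 48.1 and 152 CPM in T-HESC, with T-HESC replicate 3 well above its sisters. The linker NID1 overlapped between the lines (451 to 518 and 375 to 477 CPM) and NID2 did not (at least 156-fold higher in T-HESC).

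Of 18 matrix glycoproteins 17 were higher in T-HESC and none in HEC-1A, a median log2 difference of 8.19 with floor genes at their bound. The microfibril proteins FBN2 and MFAP2 were at 123, 95.9 and 271 and 55.3, 38.4 and 33.1 CPM in T-HESC and at the floor in HEC-1A, and the elastic fibre protein FBLN5 measured 0.248, 0.322 and 0.181 CPM in HEC-1A and 592, 525 and 297 CPM in T-HESC. Small leucine-rich proteoglycans were higher in T-HESC. LUM was at 200.2, 174 and 76.2, DCN at 362, 328 and 124 and BGN at 99.2, 64.5 and 54.4 CPM in T-HESC. None exceeded 0.495 CPM in HEC-1A. The cell-surface glypicans GPC4 and GPC3 were the 2 proteoglycans higher in HEC-1A, GPC4 at 44.1, 44.7 and 53.2 CPM against 0 counts (at least 184-fold). Versican, VCAN, overlapped (145 to 196 and 87.8 to 201 CPM). Of 8 matrix proteases tested 6 were higher in T-HESC. The gelatinase MMP2 measured 0.495, 0.886 and 0.543 CPM in HEC-1A and 1384, 1066 and 943 CPM in T-HESC, and the collagenase MMP1 was 265, 512 and 718 CPM in T-HESC and no more than 0.452 CPM in HEC-1A. The membrane-type protease MMP15 (56.4 to 58.4 against 3.3 to 4.9 CPM) and the plasminogen activator PLAU (56.4 to 62 against 7.68 to 23.2 CPM) were higher in HEC-1A. The inhibitors SERPINE2 (0.413, 0.483 and 0.452 CPM in HEC-1A and 395, 329 and 283 CPM in T-HESC), TIMP1 and TIMP2 and the receptor PLAUR were higher in T-HESC, so the activator PLAU and its receptor were high in different lines.

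**Figure D3:**
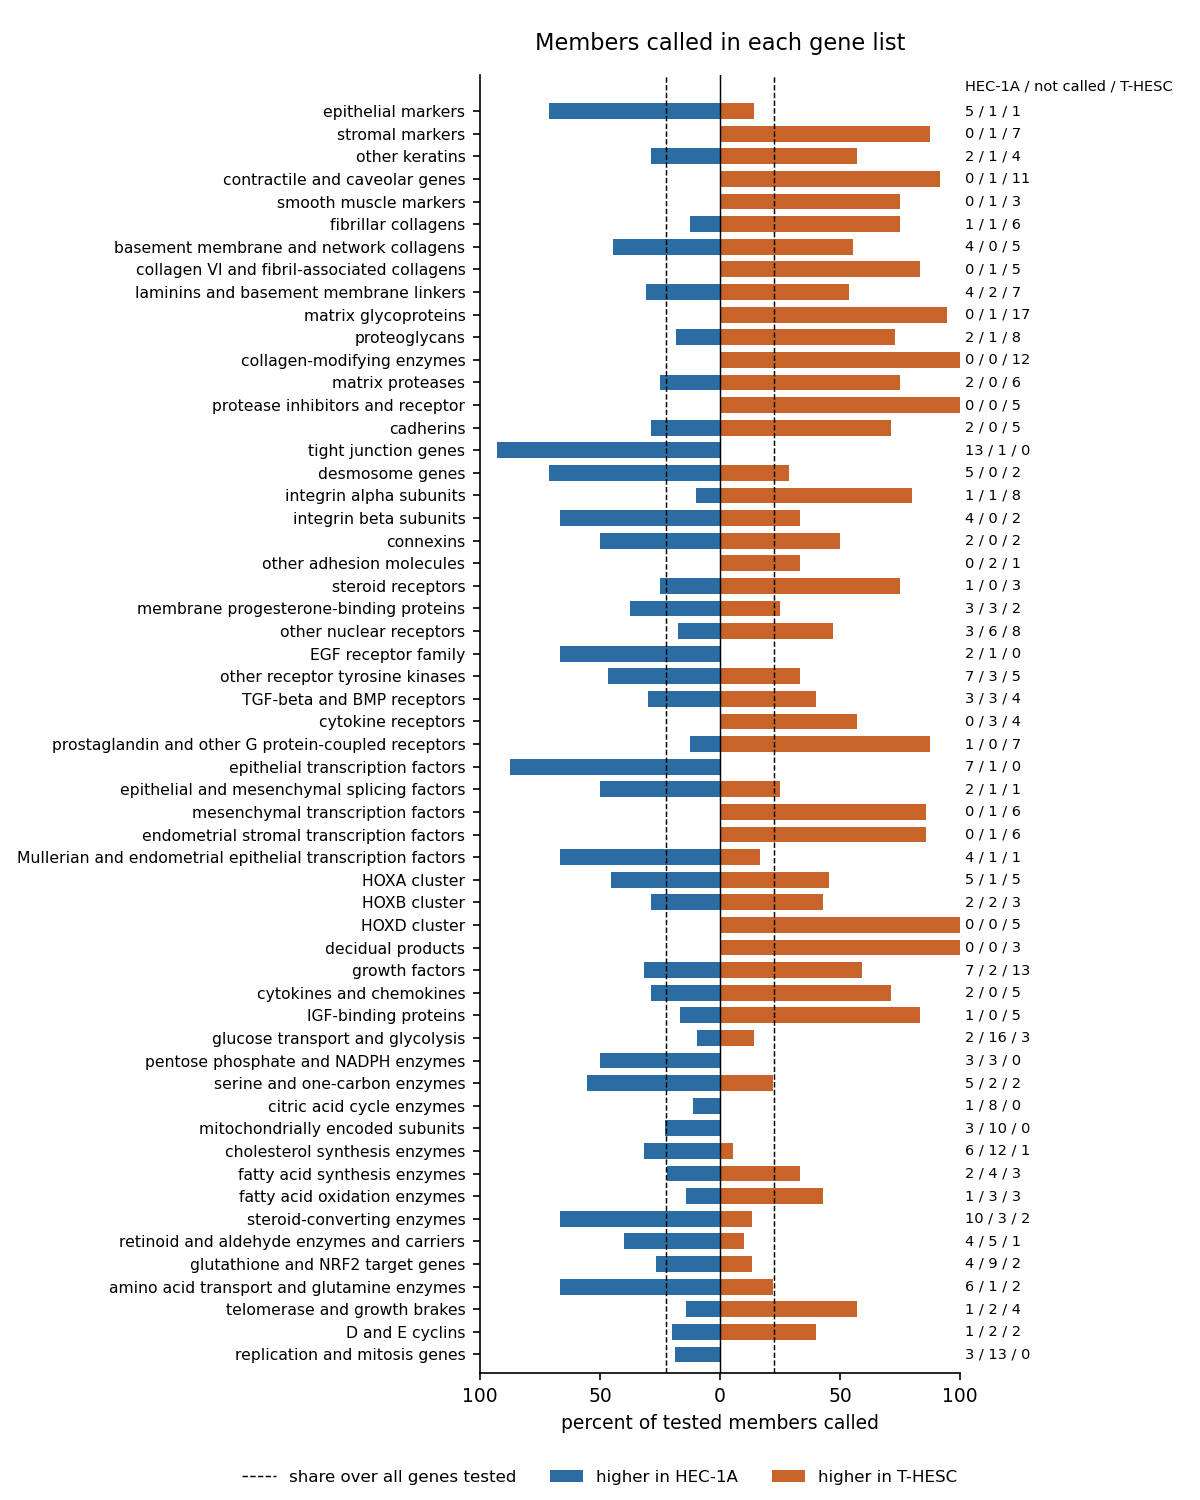
Share of tested members called in each of the 56 lists with at least 3 members tested: bars to the left are higher in HEC-1A, bars to the right higher in T-HESC, the numbers at the right are counts, and dashed lines mark 22.3%, the share over all genes in each direction. Matrix lists extend to the right and tight junction and epithelial factor lists to the left, and glycolysis and citric acid cycle bars stay short.

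Steroid receptors separated the lines. The progesterone receptor, PGR, had 0 counts in all HEC-1A libraries and 17, 15.2 and 24.5 CPM in T-HESC (at least 74.5-fold). The glucocorticoid receptor NR3C1 measured 6.52, 6.92 and 6.24 CPM in HEC-1A and 84.5, 91.3 and 114 CPM in T-HESC (log2 difference 3.87 ± 0.15, adjusted p = 7.08e-08). The mineralocorticoid receptor NR3C2 was low and higher in HEC-1A (2.56 to 3.17 against 0.302 to 1.3 CPM). The estrogen receptors were not tested: ESR1 reached no more than 0.698 CPM and ESR2 no more than 0.725 CPM in any library. The 8 proteins proposed to bind progesterone at membranes were mixed, with 2 higher in T-HESC, 3 higher in HEC-1A and 3 not called. PGRMC1, as whose ligand AG-205 is sold, measured 137, 138 and 138 CPM in HEC-1A and 153, 171 and 177 CPM in T-HESC. Its log2 difference of 0.28 ± 0.09 was under the 2-fold limit. Its relatives NENF (24.2 to 32.2 and 28.1 to 37.8 CPM) and CYB5D2 (12.6 to 14.7 and 16.8 to 22.9 CPM) were not called either, and PGRMC2 was higher in T-HESC (41.8, 42.8 and 45.5 CPM in HEC-1A and 215, 196 and 100.2 CPM in T-HESC, log2 difference 1.97 ± 0.25). Of the membrane progestin receptors PAQR7 was higher in T-HESC (36 to 41.3 against 12.1 to 13.4 CPM). PAQR5, PAQR6 and PAQR8 were higher in HEC-1A, by -3.80, -2.36 and -2.51 on the log2 scale. HEC-1A thus carried RNA of several membrane progestin receptors with no count of nuclear PGR.

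**Figure D4:**
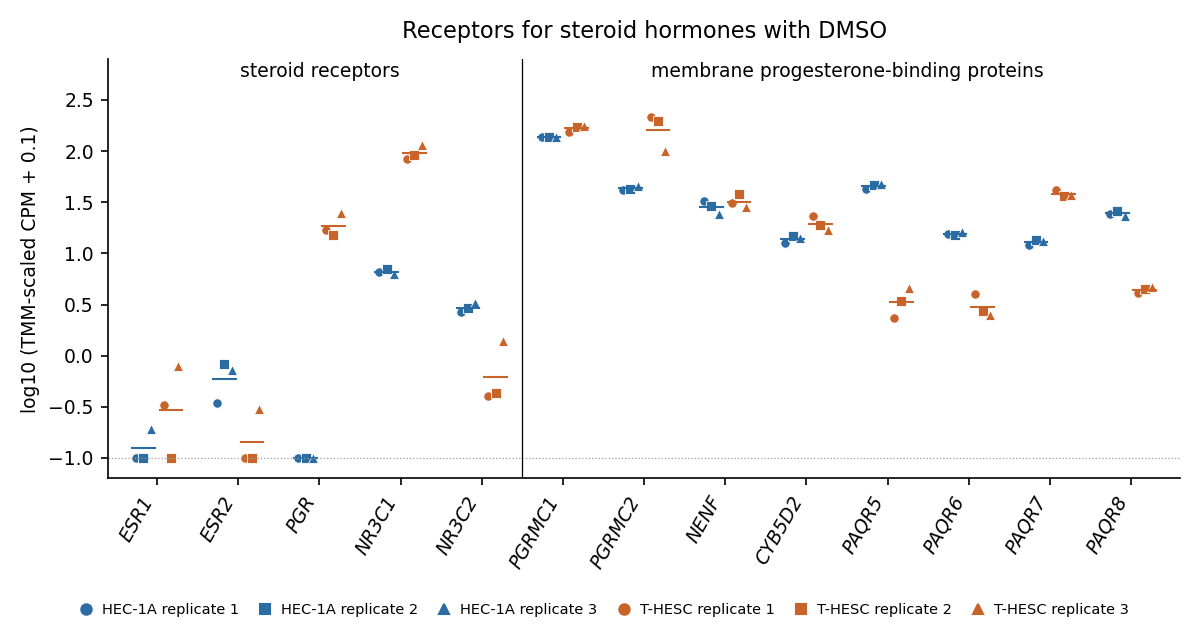
Levels of 5 steroid receptors and 8 membrane progesterone-binding proteins in the 6 libraries: the y axis is log10 (CPM + 0.1), blue points are HEC-1A and orange points T-HESC, symbol shapes are replicates, and bars are means on the log scale. PGR lies at the bottom in HEC-1A and at 15.2 to 24.5 CPM in T-HESC, PGRMC1 is close in both, and PAQR5, PAQR6 and PAQR8 are higher in HEC-1A.

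Other receptors were also distributed by line. Of 17 other nuclear receptors tested 8 were higher in T-HESC, 3 in HEC-1A and 6 not called. NR2F1, a COUP transcription factor, was at 107, 96 and 51.6 CPM in T-HESC and at the floor in HEC-1A, and the retinoic acid receptor RARB was at least 53-fold higher in T-HESC. RARA (87.5 to 93.6 against 25.4 to 36.8 CPM), PPARG (28.7 to 33.4 against 1.65 to 5.38 CPM) and the thyroid hormone receptor THRB (at least 125-fold) were higher in HEC-1A. Growth factor receptors were mixed. EGFR measured 326, 433 and 391 CPM in HEC-1A and 155, 136 and 257 CPM in T-HESC, a log2 difference of -1.07 ± 0.23 that lay under the 2-fold limit without any 1 of 3 libraries (HEC-1A replicate 2, T-HESC replicate 1 or T-HESC replicate 2). ERBB3 was higher in HEC-1A (32 to 34.3 against 4.07 to 6.58 CPM), ERBB2 was not called (241 to 248 and 138 to 160.3 CPM), and ERBB4 was near 0. FGFR2 had 0 counts in T-HESC and 35, 39.5 and 38.1 CPM in HEC-1A (at least 146-fold), FGFR4 measured 211, 201 and 199.6 CPM in HEC-1A and 1.13, 1.49 and 0.399 CPM in T-HESC, and FGFR1 was under the 2-fold limit without overlap of the lines (134 to 152 and 215 to 219 CPM). MST1R, a receptor of the MET family, was 70.7 to 72.8 CPM in HEC-1A and 0.377 to 0.698 CPM in T-HESC. The collagen receptor DDR2 (3.71, 4.35 and 3.53 CPM in HEC-1A and 351, 316 and 429 CPM in T-HESC), AXL (1042 to 1417 against 192 to 201 CPM) and KIT (at least 55-fold) were higher in T-HESC. The TGF-beta co-receptor ENG was 325 to 393 CPM in T-HESC and 0.995 to 2.06 CPM in HEC-1A. OSMR, the oncostatin M receptor, was at 72.3, 73.3 and 109 CPM in T-HESC and at the floor in HEC-1A. Of 8 prostaglandin and other G protein-coupled receptors tested 7 were higher in T-HESC, among them the lysophosphatidic acid receptor LPAR1, the prostaglandin F receptor PTGFR and the endothelin receptor EDNRA, all at the floor in HEC-1A. The oxytocin receptor OXTR, singled out after its values were seen, measured 4.38, 5.07 and 3.35 CPM in HEC-1A and 904, 811 and 1242 CPM in T-HESC. F2RL1, a protease-activated receptor, was the 1 member higher in HEC-1A (32.2 to 36.3 against 0.399 to 1.81 CPM).

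Transcription factors of epithelial and mesenchymal identity divided with few exceptions. Of 8 epithelial factors tested 7 were higher in HEC-1A and none in T-HESC. GRHL2 was at 11.3, 11.7 and 9.4, GRHL1 at 13.3, 14.8 and 13.3 and OVOL2 at 8.75, 9.5 and 8.77 CPM in HEC-1A, and all 3 were at the floor in T-HESC. KLF5 was under the 2-fold limit (63 to 69.5 and 40.2 to 54.7 CPM). The splicing regulator ESRP1 was at 90.2, 95.2 and 95.7 CPM in HEC-1A (at least 364-fold higher) and ESRP2 at 68, 76.2 and 68.8 CPM, while RBFOX2 was higher in T-HESC (251 to 297 against 82.4 to 90.5 CPM). Of 7 mesenchymal factors 6 were higher in T-HESC. TWIST1 (30.6, 35.8 and 29.9 CPM), TWIST2 (131, 140.3 and 87.5 CPM), PRRX1 (59.1, 63 and 98.8 CPM) and SNAI2 (82, 97.7 and 101 CPM) were at the floor in HEC-1A. The E-box repressor ZEB1 was present in both lines, at 5.04, 7.81 and 6.24 CPM in HEC-1A and 72.1, 69.3 and 103 CPM in T-HESC (log2 difference 3.67 ± 0.22), and ZEB2 measured 0.743, 0.805 and 0.362 CPM in HEC-1A and 65.7, 75.8 and 102 CPM in T-HESC. SNAI1 was low in both (0.886 to 1.32 and 1.7 to 2.41 CPM), not called with all libraries and called higher in T-HESC without T-HESC replicate 3 (log2 difference 1.14).

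Factors that pattern the female reproductive tract differed too. In HEC-1A the Mullerian factors PAX8 (330.4, 353 and 322 CPM in HEC-1A and 0.754, 0.908 and 0.798 CPM in T-HESC) and PAX2 (71.4, 84.6 and 74.6 CPM, at least 298-fold higher) were high, with SOX9 at 39.1, 43.1 and 39.7 and SOX17 at 5.28, 5.15 and 4.88 CPM. EMX2, listed with them, was instead at 90.2, 82.6 and 48.8 CPM in T-HESC and at the floor in HEC-1A. MSX1 was under the 2-fold limit (10.7 to 12.3 and 8.51 to 9.13 CPM). HAND2, a stromal factor downstream of the progesterone receptor, was at 51.3, 48.6 and 49.7 CPM in T-HESC and at the floor in HEC-1A (at least 197-fold). GATA2 measured 0.33, 0.886 and 0.543 CPM in HEC-1A and 99.9, 100.2 and 109.5 CPM in T-HESC, FOXL2 was at 251, 276 and 123 CPM in T-HESC, and the HOX cofactors MEIS1 and MEIS2 were higher in T-HESC by 4.61 and 2.03 on the log2 scale. FOXO1, a decidual factor, was not called (12 to 15 and 6.88 to 10.9 CPM).

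HOX genes, which mark position along the body axis, differed by group number in the HOXA cluster. HOXA genes at the high-number end were higher in T-HESC. HOXA10 measured 1.07, 1.13 and 0.995 CPM in HEC-1A and 105, 114 and 65.6 CPM in T-HESC. HOXA11 measured 0.743, 0.805 and 0.724 CPM in HEC-1A and 127, 131 and 67.4 CPM in T-HESC. HOXA13 was 7.39, 8.59 and 4.09 CPM in T-HESC with 0 counts in HEC-1A. HOXA3 (68.3, 79.5 and 71.6 CPM in HEC-1A and 13.6, 10.4 and 7.08 CPM in T-HESC) and HOXA4 were higher in HEC-1A. HOXA6 was called in neither line (2.58 to 3.44 and 2.97 to 3.92 CPM). Singled out after the values were seen, HOXA2 and HOXA5 were higher in HEC-1A as well, and HOXA7 and HOXA9 in T-HESC. Genes of this cluster overlap each other and antisense RNAs, over 31.3% of HOXA4 exons on the same strand and 27.2% of HOXA11 exons on the opposite strand, so their reads may be divided. In the HOXD cluster 5 genes were tested and all were higher in T-HESC, HOXD11 at 49.1, 46.9 and 39.8 CPM against 0 counts, HOXD10 at 79.8, 67.5 and 57 CPM and HOXD9 at 12.5, 11.3 and 12.8 CPM in HEC-1A and 137, 103 and 71.4 CPM in T-HESC. Only 2 HOXC genes were tested and both were higher in HEC-1A, HOXC13 at 10.4, 8.05 and 7.87 CPM against 0 counts. In the HOXB cluster 3 genes were higher in T-HESC (HOXB2 at 15, 16.3 and 17.9 CPM) and 2 in HEC-1A (HOXB7 at 13.4 to 16.1 against 6.38 to 6.85 CPM).

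**Figure D5:**
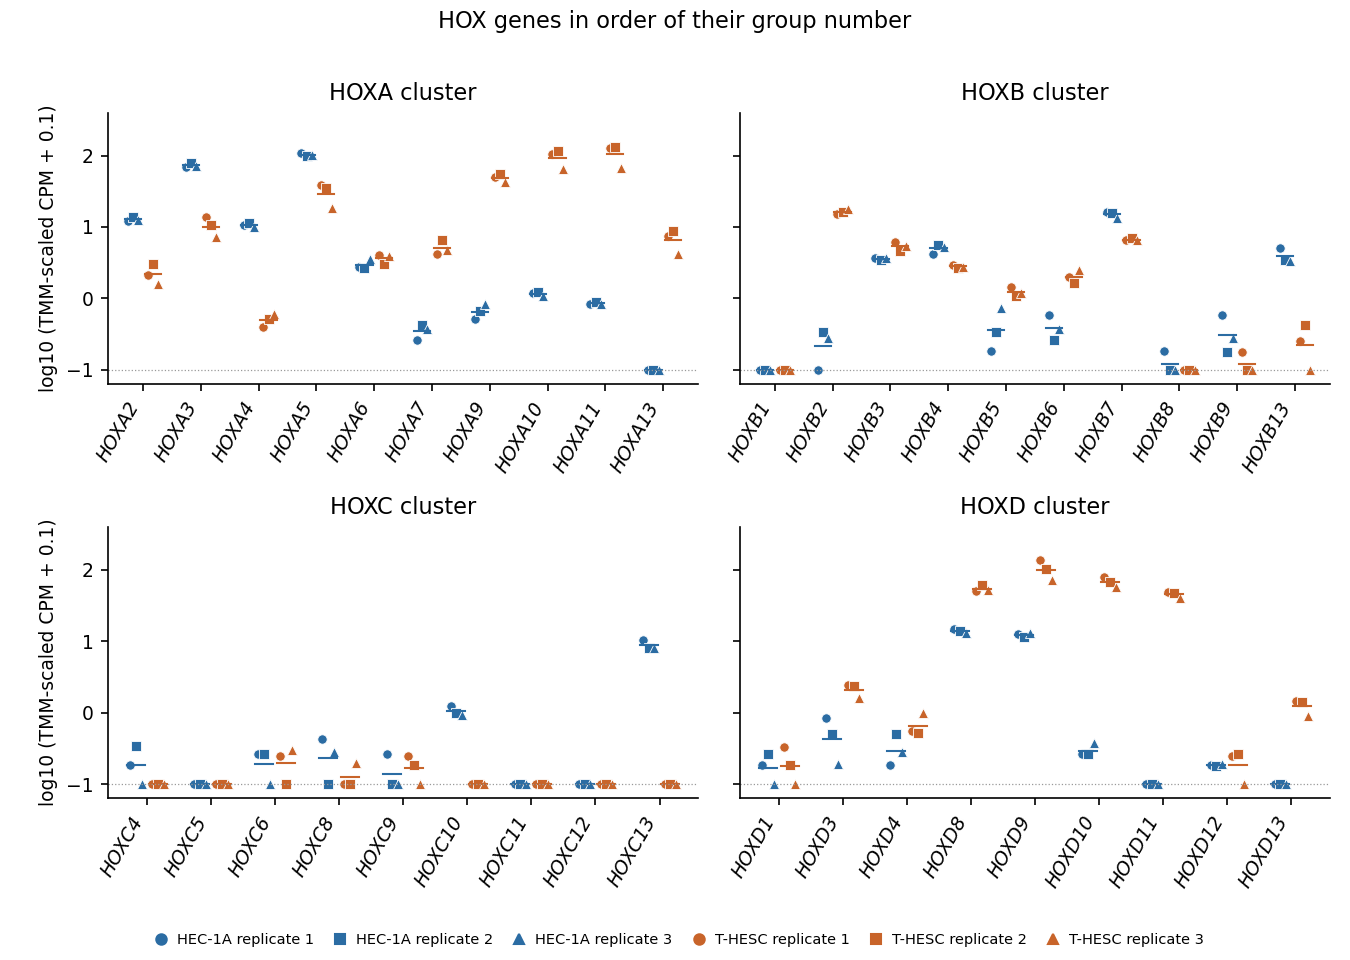
Levels of 38 genes of the HOX clusters in the 6 libraries: panels are clusters, genes run from low to high group number, the y axis is log10 (CPM + 0.1), blue points are HEC-1A and orange points T-HESC, symbol shapes are replicates, and bars are means on the log scale. In the HOXA panel blue points lie above orange ones from HOXA2 to HOXA5 and below them from HOXA7 to HOXA13.

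Secreted ligands went mostly towards T-HESC. Of 38 tested 26 were higher in T-HESC, 10 in HEC-1A and 2 not called, where all genes gave 22.3% each way. Of 22 growth factors tested 13 were higher in T-HESC and 7 in HEC-1A. HEC-1A carried the EGF receptor ligands TGFA (48.7, 54.8 and 61.4 CPM against 0 counts, at least 213-fold) and EREG (169, 202 and 185 CPM, at least 719-fold) and the Wnt ligand WNT7A of uterine epithelium (62.6, 59.3 and 60.7 CPM, at least 236-fold). T-HESC carried the lymphangiogenic factor VEGFC (77.1, 70.02 and 76 CPM against 0 counts, at least 293-fold), the BMP antagonist GREM1 (2.06, 1.77 and 1.54 CPM in HEC-1A and 3322, 3175 and 3781 CPM in T-HESC) and FGF7, a stromal ligand for epithelial FGFR2 (79.4, 84.2 and 58.6 CPM, at least 292-fold). Ligand and receptor RNA of FGF7 and FGFR2 were thus in different lines. PDGFC was under the 2-fold limit (86.3 to 91.4 and 96.4 to 115 CPM). The chemokine CXCL12 was at 472, 545 and 552 CPM in T-HESC and at the floor in HEC-1A. CXCL8 and CCL2 were called higher in T-HESC and varied between its cultures, at 471, 636 and 5.78 CPM and 137, 90.3 and 28.4 CPM. LIF, the implantation cytokine, was higher in HEC-1A with 86.3, 100.3 and 89.9 CPM in HEC-1A and 13.1, 9.66 and 0.798 CPM in T-HESC. Of 6 IGF-binding proteins 5 were higher in T-HESC. IGFBP4 measured 1.16, 1.13 and 0.724 CPM in HEC-1A and 2622, 2277 and 1515 CPM in T-HESC, IGFBP7 was 776 to 1032 CPM in T-HESC, and IGFBP5 (132, 102 and 17.8 CPM) and IGFBP6 (1636, 1417 and 512 CPM) were lowest in T-HESC replicate 3. IGFBP2 was the member higher in HEC-1A, at 153, 134 and 129 against 0.302, 0.0826 and 0 CPM. The decidual products PRL, IGFBP1, LEFTY2 and SST were at the floor in both lines, and WNT4 too, while the Wnt inhibitor DKK1 measured 0.33, 0.161 and 0.362 CPM in HEC-1A and 752, 916 and 844 CPM in T-HESC (log2 difference 11.49 ± 0.21).

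Metabolic genes were called about as often as genes in general. Of 142 tested 66 were called (46.5%, against 44.6% of all genes), so their share of calls was near the background. By direction 19 were higher in T-HESC and 47 in HEC-1A, where all genes gave 22.3% each way. Without a scaling factor these were 14 and 63. In glycolysis 16 of 21 genes were not called, and the abundant enzymes PKM (2544 to 2737 and 3239 to 3593 CPM) and ENO1 (2680 to 2983 and 1826 to 2104 CPM) stayed within the 2-fold limit. The differences lay in isoforms and transporters. Hexokinase 1, HK1, measured 4.21, 4.19 and 4.25 CPM in HEC-1A and 214, 251 and 268 CPM in T-HESC (log2 difference 5.85 ± 0.13), whereas HK2 was higher in HEC-1A (127 to 143 against 36 to 53.9 CPM). The glucose transporter SLC2A3 was at 46.5, 72.8 and 60.9 CPM in T-HESC and at the floor in HEC-1A, and the lactate exporter SLC16A3 was 502 to 582 against 36 to 44.4 CPM. GPI, the second enzyme of the pathway, was higher in HEC-1A (797, 776 and 738 CPM in HEC-1A and 189, 179 and 203 CPM in T-HESC). In the citric acid cycle 8 of 9 genes were not called.

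Serine synthesis divided between its own steps. PHGDH, its first enzyme, measured 0.495, 0.241 and 0.452 CPM in HEC-1A and 87.9, 85.7 and 59.2 CPM in T-HESC (log2 difference 7.59 ± 0.28, adjusted p = 5.32e-08). PSAT1, the second, went the other way with 503, 497 and 515 CPM in HEC-1A and 49.1, 52.2 and 36.5 CPM in T-HESC (log2 difference -3.46 ± 0.14). The folate enzymes SHMT1 (102 to 111 against 13.6 to 23.1 CPM) and MTHFD2 (259 to 275 against 41.5 to 53.4 CPM) were higher in HEC-1A, and ALDH1L2 was higher in T-HESC. HEC-1A thus held little RNA of the first step and more than T-HESC of the second. Of 9 amino acid transport and glutamine genes 6 were higher in HEC-1A, among them SLC7A5, the large neutral amino acid transporter, at 1173, 1275 and 1202 CPM in HEC-1A and 160.4, 173 and 156 CPM in T-HESC and SLC38A1 at 401, 463 and 457 CPM in HEC-1A and 46.2, 44.2 and 46.6 CPM in T-HESC. Glutamine synthetase, GLUL, was higher in T-HESC (137 to 147 against 47.1 to 53.9 CPM).

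Lipid and steroid enzymes differed by pathway. Of 19 cholesterol synthesis enzymes, the genes that the study followed under AG-205, 12 were not called, 6 were higher in HEC-1A and 1 in T-HESC. This share of calls was not above the 44.6% of all genes, of which 22.3% went each way. DHCR7, a late reductase of the pathway, measured 208, 203 and 203 CPM in HEC-1A and 53.9, 48.4 and 55.1 CPM in T-HESC (log2 difference -1.96 ± 0.09), and LSS, which closes the sterol rings, was the 1 gene higher in T-HESC (111 to 140 against 52.3 to 56.7 CPM). FDFT1 overlapped (155 to 171 and 148 to 167 CPM). Fatty acid synthase, FASN, was higher in HEC-1A (694 to 798 against 235 to 319 CPM), and the desaturases FADS2 (38.8, 33 and 36.1 CPM in HEC-1A and 202, 174 and 185 CPM in T-HESC) and SCD (169 to 200 against 46.5 to 56 CPM) were higher in T-HESC. In fatty acid oxidation CPT1A, CPT1C and ACADVL were higher in T-HESC, and CPT2 in HEC-1A. Without a scaling factor LSS, CPT1A and ACADVL fell under the 2-fold limit. Of 15 steroid-converting enzymes tested 10 were higher in HEC-1A, against 22.3% of all genes. AKR1C3, which forms active androgens and prostaglandin F, measured 235, 207 and 210.3 CPM in HEC-1A and 0.0754, 0.165 and 0.399 CPM in T-HESC, and AKR1C2, which inactivates dihydrotestosterone, 71.7, 70.05 and 68.6 CPM in HEC-1A and 0.226, 0.495 and 3.39 CPM in T-HESC. AKR1C genes are near copies of each other, so the split of reads among them is uncertain. The aldehyde dehydrogenases ALDH3A2 (206 to 211 against 11.8 to 15.2 CPM) and ALDH2 (63.2 to 71.8 against 7.93 to 9.65 CPM) were higher in HEC-1A. ALDH1A1, which makes retinoic acid, was 362, 358 and 348 CPM in HEC-1A and 604, 511 and 89.1 CPM in T-HESC, with T-HESC replicate 3 below the HEC-1A libraries and its sister cultures above them (adjusted p = 0.784).

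Redox genes varied with that culture as well. Of 15 glutathione and NRF2 target genes tested 9 were not called, a share of calls not above the 44.6% of all genes. Glutathione reductase, GSR, was higher in HEC-1A in all libraries (295, 288 and 302 CPM in HEC-1A and 70.1, 81.7 and 117 CPM in T-HESC), as was GSTP1 (905 to 1022 against 357 to 376 CPM), and GSTM3 was at 45.6, 43.4 and 43.5 CPM in T-HESC and at the floor in HEC-1A. Thioredoxin reductase, TXNRD1, overlapped with 920.2, 962 and 990.2 CPM in HEC-1A and 471, 534 and 1205 CPM in T-HESC. SLC7A11, singled out because its call changed, was not called with all libraries and was higher in HEC-1A without T-HESC replicate 3, with a log2 difference of -1.58. RNA of the 13 mitochondrially encoded subunits summed to 35900 to 41200 CPM in HEC-1A and 20300 to 21900 CPM in T-HESC. The mitochondrial share of counts was 4.72% ± 0.321 against 2.26% ± 0.0495 (SD, n = 3 each, exact permutation test, two-sided, p = 0.1, the smallest that 3 against 3 allows). Of the 13 genes 3 were called higher in HEC-1A and 10 were not called, among them MT-CO1 at 8930 to 10260 and 5517 to 5717 CPM. Several lay close to the 2-fold limit, so this count was 2 to 5 when 1 library was left out: 2 without T-HESC replicate 2, and 5 without HEC-1A replicate 2, HEC-1A replicate 3 or T-HESC replicate 3. It was 7 with upper-quartile scaling and 9 without a scaling factor.

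Growth regulators differed more than the replication genes themselves. TERT, the catalytic subunit of telomerase with which T-HESC was made, measured 6.6, 6.36 and 7.05 CPM in HEC-1A and 1631, 1582 and 2816 CPM in T-HESC (log2 difference 8.23 ± 0.30, adjusted p = 4.78e-08). Gene counts do not tell transgene from endogenous RNA. The cell cycle inhibitor CDKN1A, p21, measured 1.49, 1.21 and 0.995 CPM in HEC-1A and 462, 430.4 and 468 CPM in T-HESC (log2 difference 8.51 ± 0.15). CDKN2B was also higher in T-HESC (10.8 to 12.4 against 2.01 to 2.48 CPM), while CDKN2A was higher in HEC-1A (103 to 107 against 26.4 to 35.7 CPM). Cyclin D1, CCND1, was higher in T-HESC (546, 592 and 591 CPM in HEC-1A and 1483, 1601 and 2738 CPM in T-HESC) and cyclin E1, CCNE1, in HEC-1A (26.4 to 30.6 against 6.48 to 10.9 CPM). In contrast, 13 of 16 replication and mitosis genes were not called and none was higher in T-HESC. TOP2A was 409.6 to 430.1 and 450.3 to 509.5 CPM and CDC20 301 to 319.7 and 226 to 323 CPM. The replication licensing genes MCM2 (342, 357 and 367 CPM in HEC-1A and 57.7, 72.7 and 90.8 CPM in T-HESC) and MCM7 and the proliferation marker MKI67 were higher in HEC-1A. MKI67, at 275, 215 and 525 CPM in T-HESC against 634, 727 and 693 CPM, fell under the 2-fold limit without HEC-1A replicate 2, T-HESC replicate 1 or T-HESC replicate 2. MCM7 (log2 difference -1.03) also fell under it without T-HESC replicate 1 (-0.952), which left 1 of the 3 calls.

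Ranked over all protein-coding genes with at least 50 CPM in the higher line, the largest differences towards T-HESC were of FLNC, RAB3B, PXDN, COL5A1, DKK1, MAGED1, COL3A1 and MYL9. FLNC, a muscle-type filamin, measured 0.66, 0.161 and 0.724 CPM in HEC-1A and 1329, 1122 and 2610 CPM in T-HESC, and RAB3B, a small GTPase of vesicle release, 0.0825, 0.241 and 0.362 CPM in HEC-1A and 718, 595 and 930.2 CPM in T-HESC. PXDN, which cross-links collagen IV, was 495, 387 and 740.1 CPM in T-HESC. Towards HEC-1A they were of FAM83H, NUP210, PTPN3, EVPL, GALNT14, ST14, GPRC5C and AKR1C3. The nuclear pore protein NUP210 measured 1134, 1342 and 1231 CPM in HEC-1A and 0.905, 0.578 and 0.997 CPM in T-HESC (log2 difference -10.54 ± 0.19). The epithelial surface protease ST14, matriptase, was 291, 277 and 265 CPM in HEC-1A (at least 1078-fold higher), and EVPL, a desmosomal plakin, was 193, 198 and 193 CPM.

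By level per kilobase of exon, the most abundant nuclear protein-coding RNAs in HEC-1A were FTL, FTH1, ACTG1, ACTB and TMSB10. The iron storage subunits FTL and FTH1 stood at 10360 and 3283 CPM per kb in HEC-1A and at 3415 and 503 CPM per kb in T-HESC. In T-HESC the order was TMSB10, ACTB, FTL, ACTG1 and LGALS1, with TMSB10 at 6116 and ACTB at 4030 CPM per kb. LGALS1, galectin 1, measured 10.2, 10.9 and 9.04 CPM in HEC-1A and 3053, 3034 and 3168 CPM in T-HESC. In T-HESC replicate 3 FTL was 1769, 1708 and 5445 CPM in replicate order, again apart from its sisters. Actin, ferritin and thymosin genes have processed copies in the genome, and how reads with several matches were counted is not given in the sources used here.

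The 6 AG-205 libraries, which took no part in the comparison above, gave a second measure of the line difference in treated cells. Of 15201 genes tested there, 3296 (21.7%) were called higher in T-HESC and 3302 (21.7%) higher in HEC-1A. Of the genes called higher in T-HESC with DMSO 2787 were called so with AG-205 (84.6% of each list), and of those higher in HEC-1A 2695 were (81.7% and 81.6%). Of 6385 genes called with DMSO and tested with AG-205, 6342 had the same sign, and 4 genes changed sides with a call in both. EPCAM, CDH1, KRT8, VIM, COL1A1 and FN1 had log2 differences of -9.35, -9.86, -3.95, 11.27, 9.65 and 10.56 with AG-205. By chromosome, the median log2 difference of genes tested was lowest on chromosomes 17 (-0.453, n = 923), 3 (-0.433, n = 837) and 19 (-0.306, n = 1049), and highest on chromosome 12 (0.226, n = 783), against -0.0151 over all genes. On chromosome 17, 13.8% of genes were higher in T-HESC and 31.3% in HEC-1A. Copy number was not measured in these files, so its part in these medians was not tested.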

How the data were processed

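The deposited file held raw gene counts of 12 libraries. Per the study's methods, libraries were made from polyadenylated RNA of separate culture experiments, and the authors counted reads per gene of Ensembl release 94. The submitters' processing notes list Trimmomatic 0.38, HISAT2 2.1.0 and Subread 2.0.0 (featureCounts) with genome build GRCh38. Strand and multiple-match settings are not given in the sources used here. Of 58735 genes, 58207 had a GENCODE 44 entry for exon length, place and overlap.

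The 6 DMSO libraries were compared by line with edgeR 4.0.16 (R 4.3.3; filterByExpr, TMM, quasi-likelihood test, Benjamini-Hochberg), with 2 conditions for a call, an adjusted p below 0.05 and a log2 difference above 1 in size. DESeq2 1.42.0 (a later version of the tool the study used), limma 3.58.1 voom, other scalings, filters and thresholds, all 12 libraries, a replicate block and leaving out each library were alternatives. The code was tested on simulated data. Bounds were computed from 3 counts per library. Members and the 619 genes in 60 lists were chosen with earlier results of these data known, so their counts are descriptions. Lists of up to 8 genes could be named in full. In longer lists the 3 largest called differences per direction with at least 5 CPM and the 2 most abundant uncalled genes were named, with exceptions stated. The 8 largest differences per direction with at least 50 CPM and the 5 most abundant genes per line were added. The promoters of CRB3, OCLN, DSG2 and DSP were chosen for printing after the E-box search had been seen. No column was left unmapped (0 columns). Figures were drawn with matplotlib. Some genes of the lists are counted but not reported here by name.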

Additional observations from a re-analysis of the deposited data

Results flagged for a closer look

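For 2 genes named above the line difference itself differed between DMSO and AG-205, by a line by treatment term in edgeR fitted to all 12 libraries, a test added after the data were seen. CDKN1A had a log2 difference of 8.51 with DMSO and 5.29 with AG-205, and the fitted change from DMSO to AG-205 was -3.23 (adjusted p = 0.00546). SOX9 had -7.61 with DMSO and -4.78 with AG-205, a fitted change of 2.82 (adjusted p = 0.0298). Over 16132 genes tested, 28 passed this test, 23 of them among the genes called with DMSO. Groups of 3 libraries are too small for an outlier test, so T-HESC replicate 3 was described by its values alone.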

How the results depend on the processing

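The number of genes called depended on the fold limit by construction: with no limit it was 5335 towards T-HESC and 5329 towards HEC-1A, and with a log2 limit of 2 it was 2046 and 1900. Leaving out 1 library gave 3345 to 3632 and 3272 to 3603 with DMSO, 3024 to 3612 and 2877 to 3791 with AG-205, and 230 to 237 and 150 to 157 for the listed genes (228 and 151 with all libraries). DESeq2 called 4059 and 3890, and no filter on low counts 4605 and 4437. Between cultures of the 2 lines with the same replicate number, correlations of deviations were 0.0928, -0.146 and 0.071. Between unlike numbers they ran from -0.176 to 0.164. With 3 cultures per line, these values cannot tell whether cultures with the same number were grown together. With the number as a replicate block 3269 and 3325 genes were called with DMSO, 3008 and 3083 with AG-205, and 228 and 154 listed genes. Of 6593 genes called, 5089 (77.2%) kept their direction and call under all 15 alternative fits with the same thresholds, and none was called in the opposite direction in any of them. Single genes with reversed signs were all uncalled. Without a scaling factor log2 differences became -0.172 for ALDH1A1, -0.0687 for CNN2, -0.0309 for HOXA6, -0.283 for ITGAV, -0.277 for KRT19, -0.162 for NENF, -0.0994 for PDGFC, -0.0677 for PGRMC1, -0.345 for S100A4 and -0.133 for TOP2A. With upper-quartile scaling they became -0.0895 for ITGAV, -0.0824 for KRT19 and -0.151 for S100A4. A mean of at least 1 CPM gave -0.0139 for S100A4, limma voom with quality weights gave -0.0035 for ITGAV and -0.229 for NQO1, and the replicate block gave -0.176 for ALDH1A1. Leaving out 1 library, the range was -0.203 to 0.684 for ALDH1A1, -0.1003 to 0.0352 for FDFT1, -0.00528 to 0.145 for ITGAV, -0.381 to 0.782 for NQO1 and -0.0556 to 0.0745 for S100A4. Depth set the floor of 3 counts at 0.241 to 0.271 CPM in HEC-1A and 0.226 to 0.299 CPM in T-HESC, and levels below it were not detectable at this depth. Each tissue type was represented by 1 line, so a difference between lines cannot be told apart from a difference between cell types.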

Other observations

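Pentose phosphate and NADPH enzymes, a group of 6 genes not described above, had 3 members higher in HEC-1A, none higher in T-HESC and 3 not called. Over all genes tested 22.3% were higher in HEC-1A. Transketolase, TKT, measured 1266, 1223 and 1220 CPM in HEC-1A and 338, 300.2 and 635 CPM in T-HESC (log2 difference -1.54 ± 0.26), the malic enzyme ME1 139.6, 142 and 154 CPM in HEC-1A and 28.7, 33.2 and 38.3 CPM in T-HESC, and the cytosolic isocitrate dehydrogenase IDH1 210.3, 216 and 209 CPM in HEC-1A and 61.9, 63.7 and 77.6 CPM in T-HESC. For all 3 genes T-HESC replicate 3 was the highest culture of its line and still lay below every HEC-1A library. PGD, the second oxidative enzyme of the pentose phosphate pathway, was 162, 157 and 157 CPM in HEC-1A and 178, 177 and 337 CPM in T-HESC and was not called (adjusted p = 0.0661).

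Of 7 cytokine receptors tested 4 were higher in T-HESC and none in HEC-1A. The shared receptor IL6ST measured 62.4, 75.2 and 72 CPM in HEC-1A and 127, 132 and 234 CPM in T-HESC, a log2 difference of 1.23 ± 0.23 that fell below the 2-fold limit without T-HESC replicate 3 (0.927), without a scaling factor (0.879) and with limma voom (0.965). IL4R (60.4 to 75.9 against 14.7 to 15.8 CPM) and IL11RA (9.57 to 17.4 against 1.93 to 2.35 CPM, with 32.45% of its exon length shared with another gene on its strand) were higher in T-HESC. The receptor of LIF, LIFR, was low in both lines (2.62 to 3.38 and 0.83 to 2.89 CPM) and was not called.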
